A study of Mus musculus with 2 samples.

Results

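Genomic imprinting leaves one parental copy of a gene active and the other silent, and the imprinted genes outside the insulin-like growth factor family were read here in the embryonic mouse kidney. The set is a fixed list of 45 genes, grouped by imprinted cluster and by the allele that is known from the literature to be expressed. Of these, 44 were matched by symbol to an identifier among the 43346 mouse genes of the tables, while Peg13, a paternally expressed RNA in an intron of Trappc9, had no match and is not analysed here. The matched members comprise 10 maternally expressed genes, 21 paternally expressed genes and 13 whose imprinting is limited to certain tissues, stages or transcripts.

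Total RNA came from kidneys of B6NCrl mouse embryos at embryonic day 15.5, and the single group, embryonic kidney, consisted of 2 pools labelled as biological replicates. Replicate 1 pooled 78 embryos and replicate 2 pooled 62, with both sexes mixed, no treatment and no other tissue. Each library was made from 10 ng of RNA, and the tables summed to 36244861 expected counts in replicate 1 and 39415002 in replicate 2. The tables hold no allele counts, so the parental origin given below is background and was not measured. All 10 kidney markers were detected, with a summed level of 469 TPM in replicate 1 and 459 TPM in replicate 2. Markers of neighbouring tissues differed between the pools and are given beside the results they accompany.

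Imprinted genes mostly lie in clusters in which a stretch of DNA, methylated in only one of the parental germ lines, sets the activity of several neighbours. Such control regions keep their methylation in the embryo through the zinc finger protein ZFP57, its relative ZFP445 and the corepressor TRIM28. Long non-coding RNAs transcribed from one parental copy are part of many clusters, and a number of the protein-coding members are known regulators of fetal growth.

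Most of the listed genes were expressed in the kidney, several of them among the most abundant messages of the tissue. TPM is a relative abundance adjusted for transcript length, and a gene was called detected when each library gave it at least 1 TPM. By this rule 37 of the 44 matched members were detected, against 34.9% of all mouse genes. Among the protein-coding members 30 of 37 were detected, against 62.3% of all protein-coding genes. All 7 long non-coding members (H19, Kcnq1ot1, Meg3, Rian, Mirg, Nespas and Airn) were detected, against 13.6% of long non-coding genes. A level of 100 TPM or more in each library was reached by 11 members, against 3.66% of all genes. These were 9 protein-coding members and the non-coding H19 and Meg3. The members' median was 23.3 TPM in replicate 1 and 24.7 TPM in replicate 2, and together they held 0.622% of all TPM in replicate 1 and 0.674% in replicate 2. The list was drawn up from well-studied genes, so these shares describe the list and not imprinting in general.

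The parental classes had similar medians and wide ranges. Maternally expressed members had a median of 26.2 TPM in replicate 1 and 31.8 TPM in replicate 2. Paternally expressed members had a median of 19.25 TPM in replicate 1 and 23.7 TPM in replicate 2, so the maternal median was the higher one in either library. The members of limited imprinting lay between them at 23.6 TPM in replicate 1 and 25.6 TPM in replicate 2. Over detected members alone the order differed, with medians of the mean level of 36.4 TPM for the maternal, 28.4 TPM for the paternal and 39.1 TPM for the limited class. Each class reached from below 1 TPM (Ascl2, Usp29 and Rasgrf1) to the highest levels of the set (Cdkn1c, Mest and Gnas), and no test was made, since libraries do not replicate a difference between classes of genes.

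**Figure D1:**
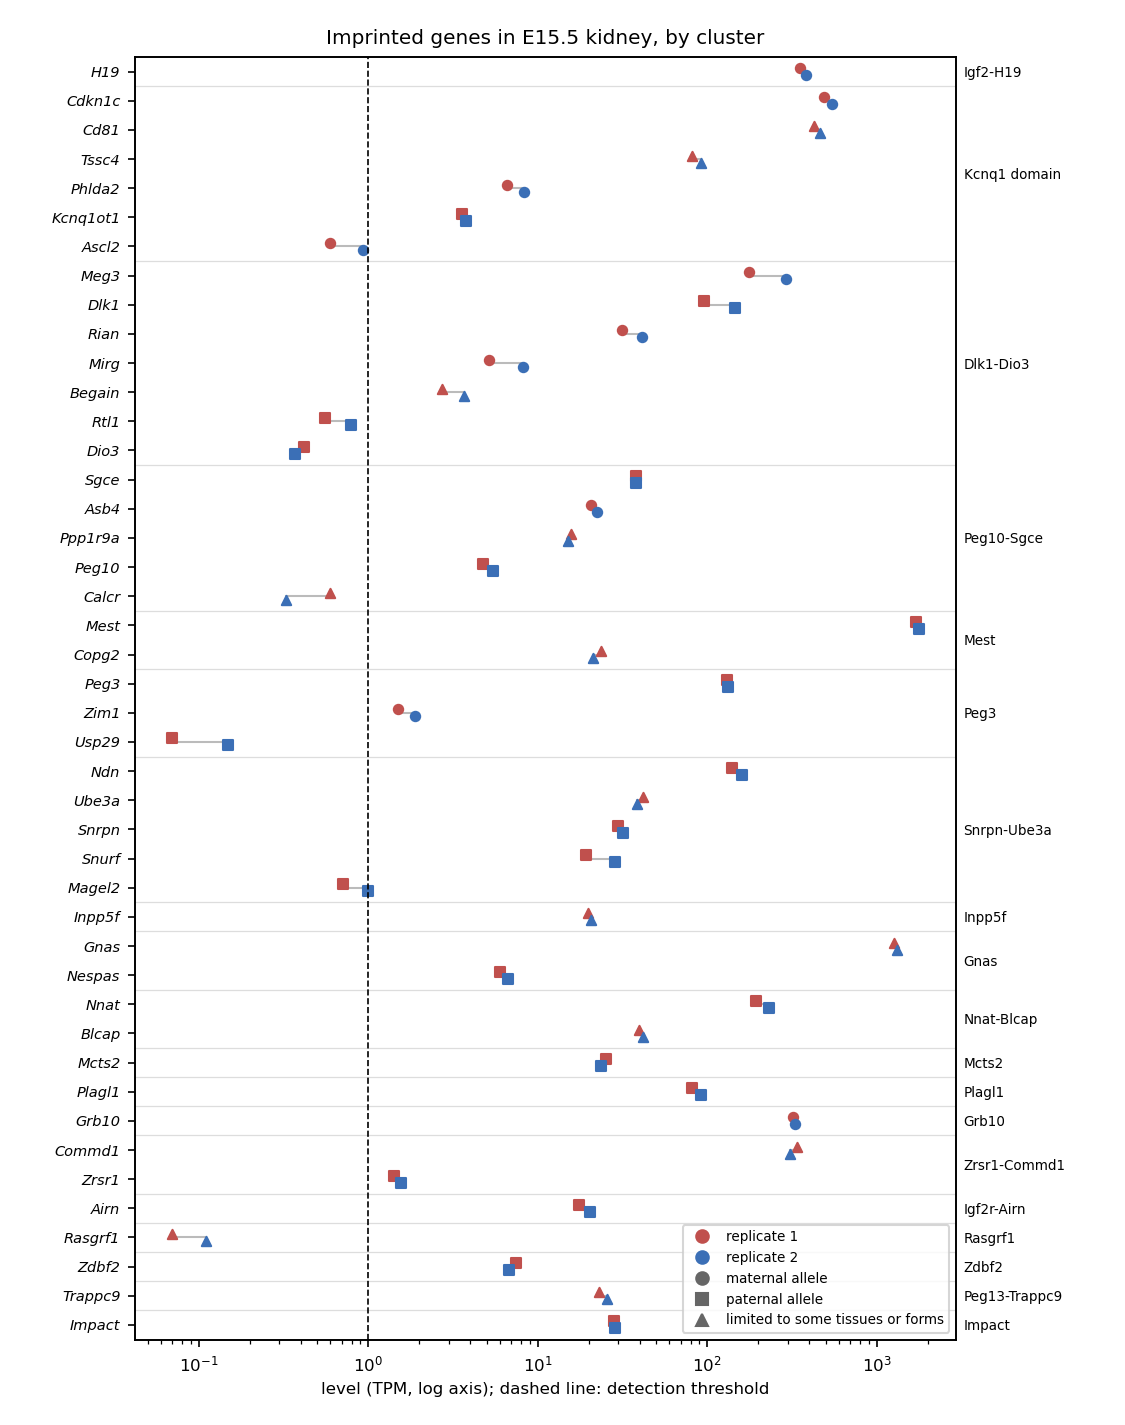
Level of each of the 44 matched members on a log axis of TPM, arranged by imprinted cluster, with replicate 1 in red and replicate 2 in blue and the marker shape giving the allele class; the dashed line is the detection threshold of 1 TPM. Members of 1 cluster span wide ranges, as from Cdkn1c (487 TPM in replicate 1 and 546 TPM in replicate 2) to Ascl2 (0.60 and 0.93 TPM), while the libraries lie close to each other for most genes.

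The highest members were Mest, Gnas and Cdkn1c. Mest, a paternally expressed hydrolase-fold protein of mesodermal tissues, stood at 1712 TPM in replicate 1 and 1778 TPM in replicate 2 (1745 ± 46.1 TPM, SD, n = 2). It ranked 42 among all mouse genes. Gnas, which encodes the stimulatory G protein alpha subunit, stood at 1263 TPM in replicate 1 and 1327 TPM in replicate 2 and ranked 71. Cdkn1c, the maternally expressed inhibitor of cyclin-dependent kinases called p57, stood at 487 TPM in replicate 1 and 546 TPM in replicate 2, and 625 of its 2039 exon bases overlap a predicted gene on the other strand. The 3 genes did not overlap with each other or with the next in order in either library.

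Below them the order became closer. The tetraspanin Cd81 had 425 TPM in replicate 1 and 466 TPM in replicate 2. The maternally expressed non-coding RNA H19 had 352 TPM in replicate 1 and 384 TPM in replicate 2. Grb10, an adaptor that restrains insulin and growth factor receptor signalling, had 319.8 TPM in replicate 1 and 332 TPM in replicate 2. Commd1, a protein of copper handling and endosomal traffic, had 340.1 TPM in replicate 1 and 309.5 TPM in replicate 2. Grb10 and Commd1 changed places between the libraries, so their order was not resolved.

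Mest lies on chromosome 6 (chr6:30723547-30748465, plus strand, mm10) and has several annotated starts in mouse, of which the imprinted one is known to drive the embryonic message. Transcripts that begin within 1 kb of a shared annotated start held 97.4% of the Mest signal in replicate 1 and 97.6% in replicate 2. The starts of this group lie at 30738050 to 30738055. The RefSeq promoter window of this start (chr6:30737800-30738099, plus strand, GRCm38.p6) is shown because almost all of the most abundant member's signal was assigned to it, with matches to the ZFP57 core motif TGCCGC, on either strand, in capitals.
Mest promoter: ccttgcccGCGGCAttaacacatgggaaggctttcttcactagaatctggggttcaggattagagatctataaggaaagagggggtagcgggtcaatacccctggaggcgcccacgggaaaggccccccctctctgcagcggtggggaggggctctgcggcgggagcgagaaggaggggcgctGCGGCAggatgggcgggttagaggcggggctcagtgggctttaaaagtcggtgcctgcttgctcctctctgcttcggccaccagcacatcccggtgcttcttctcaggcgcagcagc
The window holds 2 matches and has a CpG observed over expected ratio of 0.590. The neighbour Copg2, a coatomer subunit read from the opposite strand, had 23.6 TPM in replicate 1 and 21.3 TPM in replicate 2. Its exons share 912 bases with those of Mest, and since the strand setting of the counting is not given, reads there cannot be assigned with certainty.

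An intron of Mest and an exon of H19 carry microRNAs, short RNAs that pair with messages through a seed at bases 2 to 8. The libraries kept fragments longer than 200 nt, so mature microRNAs were not measured and only their host genes have values. The sequences are printed because Mest and H19 are among the 5 highest members, with the seed in capitals (RefSeq, GRCm38.p6).
mmu-miR-335-5p: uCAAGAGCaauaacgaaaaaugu
mmu-miR-675-5p: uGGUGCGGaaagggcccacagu
mmu-miR-675-3p: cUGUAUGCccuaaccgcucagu
The first lies at chr6:30741314-30741336 on the strand of Mest. The others lie at chr7:142577112-142577133 and chr7:142577078-142577099 on the strand of H19. No seed is shared among these 3.

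The Kcnq1 domain of distal chromosome 7 is controlled by Kcnq1ot1, a long RNA read from the paternal copy that silences its neighbours there. Kcnq1ot1 stood at 3.59 TPM in replicate 1 and 3.80 TPM in replicate 2. Its single annotated model is 84395 nt long, and it carried 7413 expected counts in replicate 1 and 8441 in replicate 2, a high total spread over a long model. Cdkn1c exceeded it by 6.73 on the log2(TPM + 1) scale in replicate 1 and by 6.83 in replicate 2. Phlda2, a maternally expressed protein known for restraining placental growth, was far lower than Cdkn1c at 6.58 TPM in replicate 1 and 8.36 TPM in replicate 2. Ascl2, a basic helix-loop-helix factor of trophoblast and intestinal stem cells, was below the threshold at 0.60 TPM in replicate 1 and 0.93 TPM in replicate 2. Tssc4, a factor in spliceosome assembly imprinted mainly in placenta, had 81.5 TPM in replicate 1 and 92.3 TPM in replicate 2. The maternally expressed genes of this domain thus covered the whole range from undetected to among the highest of the set.

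The Dlk1-Dio3 cluster of distal chromosome 12 pairs paternally expressed protein-coding genes with a long maternally expressed unit of non-coding RNAs. Dlk1, a Delta-like membrane protein of growing and progenitor tissues, had 96.3 TPM in replicate 1 and 147 TPM in replicate 2. Meg3, the RNA at the start of the maternal unit, had 177 TPM in replicate 1 and 293 TPM in replicate 2. Meg3 was the higher of the pair in both libraries, with a Dlk1 minus Meg3 difference of -0.87 in replicate 1 and -0.99 in replicate 2. The limit for this difference was 0.25, the size of log2 TPM ratio between the libraries that 95% of genes of that abundance did not reach.

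Along the maternal unit each named host in turn had a lower level than the one before it. Rian, which hosts small nucleolar RNAs, had 31.5 TPM in replicate 1 and 41.2 TPM in replicate 2. Mirg, which hosts microRNAs, had 5.16 TPM in replicate 1 and 8.22 TPM in replicate 2. Meg3 exceeded Rian by 2.45 in replicate 1 and 2.80 in replicate 2, and Rian exceeded Mirg by 2.40 in replicate 1 and 2.19 in replicate 2. All of these lay beyond their limits of 0.27 for Meg3 over Rian and 0.79 for Rian over Mirg. Their transcript models differ in number, from 11 for Meg3 and 19 for Rian to 12 for Mirg, and TPM depends on those models.

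The other protein-coding genes of the cluster were scarce. Begain, a synaptic scaffold protein, had 2.73 TPM in replicate 1 and 3.66 TPM in replicate 2. Rtl1, a retrotransposon-derived protein needed in placenta and muscle, had 0.56 TPM in replicate 1 and 0.79 TPM in replicate 2. Dio3, the enzyme that inactivates thyroid hormone, had 0.42 TPM in replicate 1 and 0.37 TPM in replicate 2. Rtl1 and Dio3 were not detected by the rule, and Dlk1 exceeded them by 5.96 and 6.10 in replicate 1 and by 6.37 and 6.75 in replicate 2. Rtl1 rested on 86 counts in replicate 1 and 130.5 in replicate 2, and 534 of its 6358 exon bases are also exons of microRNA genes, all but 1 of which are read from the other strand.

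The promoter windows of Dlk1 and Meg3 are printed because these genes head the paternal and the maternal side of the cluster and moved together between the pools, as described further on. The windows are chr12:109452573-109452872 for Dlk1 and chr12:109540746-109541045 for Meg3, both on the plus strand, with TGCCGC on either strand in capitals.
Dlk1 promoter: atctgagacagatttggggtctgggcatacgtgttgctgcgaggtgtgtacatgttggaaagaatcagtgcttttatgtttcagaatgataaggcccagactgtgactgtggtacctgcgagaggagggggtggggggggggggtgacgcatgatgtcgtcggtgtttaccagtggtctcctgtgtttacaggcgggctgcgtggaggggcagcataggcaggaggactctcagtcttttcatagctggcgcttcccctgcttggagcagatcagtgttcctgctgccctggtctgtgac
Meg3 promoter: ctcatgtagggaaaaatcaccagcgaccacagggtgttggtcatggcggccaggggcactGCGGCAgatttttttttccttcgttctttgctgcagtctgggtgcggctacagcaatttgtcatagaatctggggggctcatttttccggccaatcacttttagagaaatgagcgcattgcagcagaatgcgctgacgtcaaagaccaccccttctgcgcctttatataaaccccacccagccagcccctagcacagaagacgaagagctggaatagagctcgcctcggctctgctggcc
The Meg3 window holds 1 match and the Dlk1 window 0. The CpG observed over expected ratio was 0.427 for Dlk1 and 0.602 for Meg3.

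The Dlk1-Dio3 cluster is also the main microRNA locus of the set. Of 31 hairpins that lie inside members, 26 lie in this cluster, and they give 48 of 58 mature sequences. Mirg contains 14 of the hairpins, and 1, Mir3071, lies on the strand of Rtl1 and not on that of the maternal unit. Another 6 lie opposite Rtl1, whose message they can pair with along their full length. Only 1 seed is shared by more than 1 of the 58 mature sequences, that of miR-453 and miR-496a-5p in introns of Mirg, and these are printed with examples opposite Rtl1 (miR-127-3p and miR-136-5p) and in a Mirg exon (miR-410-3p), seeds in capitals.
mmu-miR-453: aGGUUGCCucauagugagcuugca
mmu-miR-496a-5p: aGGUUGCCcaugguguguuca
mmu-miR-127-3p: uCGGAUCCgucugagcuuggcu
mmu-miR-136-5p: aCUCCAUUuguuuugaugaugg
mmu-miR-410-3p: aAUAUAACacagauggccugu
Their positions on the plus strand of chromosome 12 are chr12:109735669-109735692, chr12:109739132-109739152, chr12:109592888-109592909, chr12:109595331-109595352 and chr12:109743764-109743784 in the same order.

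On proximal chromosome 6, Peg10 and Sgce are read in opposite directions from neighbouring starts of the paternal copy. Sgce, epsilon-sarcoglycan of the dystrophin-linked membrane complex, had 38.02 TPM in replicate 1 and 38.05 TPM in replicate 2. Peg10, a retrotransposon-derived gene needed in placenta, had only 4.79 TPM in replicate 1 and 5.43 TPM in replicate 2. Peg10 was below Sgce by -2.75 in replicate 1 and -2.60 in replicate 2, so genes that share a start region differed well beyond the limit of 0.79. Asb4, a maternally expressed ankyrin-repeat protein, had 20.8 TPM in replicate 1 and 22.4 TPM in replicate 2. Ppp1r9a, the actin-binding neurabin, had 15.8 TPM in replicate 1 and 15.2 TPM in replicate 2. Calcr, the calcitonin receptor, was not detected, with 0.60 TPM in replicate 1 and 0.33 TPM in replicate 2.

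The Peg3 cluster of proximal chromosome 7 was dominated by a single gene. Peg3, a paternally expressed zinc finger protein, had 131 TPM in replicate 1 and 133 TPM in replicate 2. Zim1, a maternally expressed zinc finger neighbour, had 1.5 TPM in replicate 1 and 1.89 TPM in replicate 2. Usp29, a deubiquitinase gene that is read from the same bidirectional start region as Peg3, had 0.07 TPM in replicate 1 and 0.15 TPM in replicate 2. Usp29 rested on 4 counts in replicate 1 and 10 in replicate 2, the fewest of any member. Peg3 exceeded Usp29 by 6.95 in replicate 1 and 6.86 in replicate 2, and exceeded Zim1 by 5.73 in replicate 1 and 5.54 in replicate 2.

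On central chromosome 7, the region homologous to the human Prader-Willi and Angelman locus, Ndn led. Ndn, or necdin, a MAGE family protein of neurons and other differentiating cells, had 141 TPM in replicate 1 and 160.1 TPM in replicate 2. Magel2, another intronless MAGE gene of the region, had 0.71 TPM in replicate 1 and 1.00 TPM in replicate 2 and was not detected by the rule. Ndn exceeded Magel2 by 6.38 in replicate 1 and 6.33 in replicate 2. Snrpn, a spliceosomal protein, had 29.8 TPM in replicate 1 and 31.8 TPM in replicate 2. Ube3a, a ubiquitin ligase that is maternally expressed in neurons and active from both copies elsewhere, had 41.9 TPM in replicate 1 and 38.6 TPM in replicate 2. Ube3a was above Snrpn in both libraries, but by the smallest margin of the pairs, with Snrpn minus Ube3a at -0.478 in replicate 1 and -0.275 in replicate 2 against a limit of 0.268. Of the 20626 exon bases that GENCODE M21 gives Ube3a, 5624 overlap exons of other genes, among them the antisense RNA Snhg14. The single model counted here is 5097 nt long, so these overlaps need not apply to its reads. Snurf, the upstream reading frame of the Snrpn message, had 19.25 TPM in replicate 1 and 28.6 TPM in replicate 2. All 216 exon bases of Snurf are shared with Snrpn on the same strand, so its 55.2 and 88.2 counts depend on how shared reads were divided.

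The Gnas locus on distal chromosome 2 combines starts of opposite imprinting, and its transcripts were told apart by their annotated starts. The starts furthest upstream give the neuroendocrine protein Nesp from the maternal copy. XLas, an extra-large form, and the non-coding exon 1A transcript are paternal, and the ubiquitous Gs-alpha start is expressed from both copies in most tissues. Transcripts of the Gs-alpha start held 94.3% of the Gnas signal in replicate 1 and 93.6% in replicate 2. The Nesp start gave 28.3 TPM in replicate 1 and 36.1 TPM in replicate 2, which was 2.24% and 2.72% of the gene. The exon 1A start gave 31.6 TPM in replicate 1 and 33.4 TPM in replicate 2. The XLas start was the lowest of these at 4.88 TPM in replicate 1 and 6.57 TPM in replicate 2. These starts share downstream exons, and their names follow the known order along the locus rather than labels in the tables. Nespas, the paternal antisense RNA across the Nesp start, had 6.03 TPM in replicate 1 and 6.68 TPM in replicate 2, and 1210 of its 3143 exon bases overlap exons of other genes on the opposite strand.

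Nnat and Blcap on chromosome 2 are nested, with Nnat inside an intron of Blcap. Nnat, or neuronatin, a paternally expressed membrane protein of the endoplasmic reticulum, had 195 TPM in replicate 1 and 232 TPM in replicate 2. Blcap, the host gene, had 39.6 TPM in replicate 1 and 41.8 TPM in replicate 2. Nnat exceeded Blcap by 2.27 in replicate 1 and 2.45 in replicate 2, past the limit of 0.27. The gene within the intron was the higher one in both libraries.

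The remaining members are single genes or retrocopies with a host. Plagl1, the paternally expressed zinc finger protein ZAC1 that restrains growth and regulates other imprinted genes, had 81.3 TPM in replicate 1 and 92.6 TPM in replicate 2. Impact, a regulator of the GCN2 stress kinase, had 28.1 TPM in replicate 1 and 28.5 TPM in replicate 2. Trappc9, a vesicle-tethering subunit, had 23.0 TPM in replicate 1 and 25.6 TPM in replicate 2. These were all well detected, with ratios of replicate 1 over replicate 2 of 0.88 for Plagl1, 0.99 for Impact and 0.90 for Trappc9. Airn, the RNA read across Igf2r from the paternal copy, had 17.4 TPM in replicate 1 and 20.5 TPM in replicate 2. Inpp5f, an inositol phosphatase, had 20.0 TPM in replicate 1 and 20.8 TPM in replicate 2. Rasgrf1, a Ras exchange factor of brain that is paternally expressed there, was not detected, with 0.07 TPM in replicate 1 and 0.11 TPM in replicate 2.

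The retrocopies Mcts2 and Zrsr1 arose by reverse transcription of genes on the X chromosome and sit within introns of other genes. Mcts2 had 25.3 TPM in replicate 1 and 23.7 TPM in replicate 2, against 74.8 TPM and 68.4 TPM for its parent Mcts1. Zrsr1 had 1.42 TPM in replicate 1 and 1.57 TPM in replicate 2, against 56.8 TPM and 48.9 TPM for its parent Zrsr2. Both retrocopies were therefore below their parents in both libraries. The best local alignment of GENCODE M21 transcripts covered 671 columns at 83.8% identity for Mcts2 and Mcts1 and 369 columns at 73.4% for Zrsr1 and Zrsr2, so the copies differ at many positions. Zrsr1 was also far below its host Commd1, by -7.14 in replicate 1 and -6.92 in replicate 2, and 412 of its 4492 exon bases overlap other exons, those of Commd1 on the opposite strand.

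Zdbf2 on chromosome 1 is a zinc finger gene whose embryonic programming depends on an upstream paternal start. It had 7.44 TPM in replicate 1 and 6.78 TPM in replicate 2. A protein-coding model of only 611 nt held 76.8% of this in replicate 1 and 76.7% in replicate 2, while the 12629 nt model stood at 1.73 TPM in replicate 1 and 1.58 TPM in replicate 2. None of the 3 annotated models of Zdbf2 begins in the upstream window. All signal was therefore assigned to downstream starts, and the values cannot show whether the upstream start was used. The upstream RefSeq window (chr1:63200108-63200407, plus strand, GRCm38.p6) is printed because it holds 3 matches to TGCCGC, the most of any member window, in capitals.
Zdbf2 upstream promoter: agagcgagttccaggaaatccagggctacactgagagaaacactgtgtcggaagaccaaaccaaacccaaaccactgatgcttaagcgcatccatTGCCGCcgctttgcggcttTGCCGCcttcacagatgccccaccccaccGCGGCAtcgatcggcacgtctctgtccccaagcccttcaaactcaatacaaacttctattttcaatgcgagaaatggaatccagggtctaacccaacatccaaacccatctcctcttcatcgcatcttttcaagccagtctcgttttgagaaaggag
The CpG observed over expected ratio of this window was 0.814.

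Promoter sequence was used for 36 members, in 55 windows of 300 bases that run from 250 bases before to 50 after each RefSeq start. Chromosome 18, which holds Impact, was left out of the members' windows and microRNA hairpins. The median CpG observed over expected ratio was 0.685 in members' windows and 0.384 in all 32851 windows. TGCCGC or its reverse complement GCGGCA occurred in 14 of the 55 windows (25.5%), belonging to 13 genes, against 11.6% of all windows. The motif holds a CpG, and among windows with a ratio of 0.6 or more it occurred in 33.3% of members' windows and 24.3% of all windows. Snrpn and Snurf share a window and the windows of 1 gene can overlap, so these are descriptions of letters and not of bound sites.

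**Figure D2:**
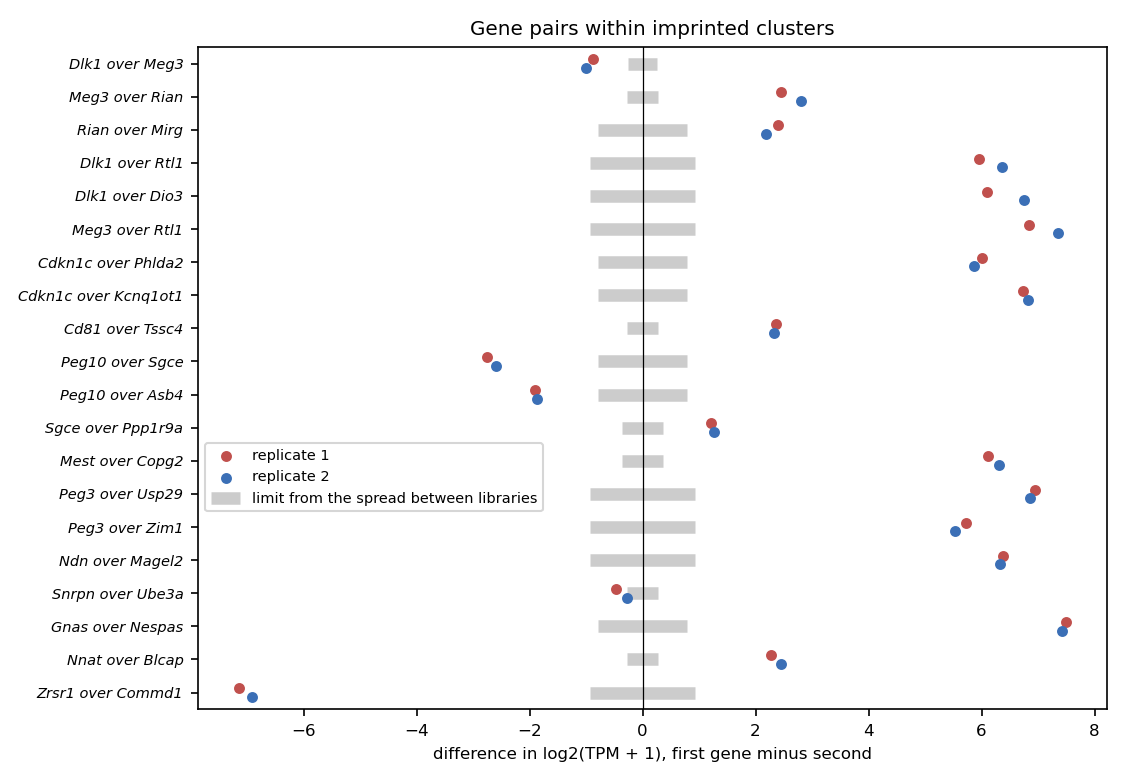
Difference in log2(TPM + 1) between the genes of 20 pairs within imprinted clusters, replicate 1 in red and replicate 2 in blue; grey bars show the limit that a difference had to exceed in both libraries. All pairs lie outside their grey bar, with Snrpn over Ube3a nearest to it.

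Levels within clusters differed beyond the spread between libraries. Of 21 listed pairs 20 could be computed, and all 20 passed the limit in both libraries, against 91.7% of neighbouring gene pairs of the genome with at least 1 detected gene. The share is thus near that of neighbours in general, and nothing particular to imprinted clusters is read from it. The first-named gene was higher in 15 pairs and the second in 5, and Ube3a over Snrpn passed by little in replicate 2. Pairs of paternally expressed genes differed on average by 6.91 (Peg3 and Usp29), 6.43 (Dlk1 and Dio3) and 6.35 (Ndn and Magel2). Dlk1 and Rtl1 differed by 6.17 and Peg10 and Sgce by -2.68. Among genes with opposite parental origin the differences were 7.10 (Meg3 and Rtl1), 6.78 (Cdkn1c and Kcnq1ot1) and 5.63 (Peg3 and Zim1). Those of Peg10 and Asb4 (-1.89) and of Dlk1 and Meg3 (-0.93) were smaller in size. With 2 libraries the smallest exact p is 0.5, so no p is given, and a pass says only that the difference exceeds the measuring spread.

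Most members were read as several transcripts, with shares that mostly repeated between the libraries. Of the 37 detected members 8 have a single annotated transcript, against 32.4% of all detected genes, and in 25 the leading transcript held under 90% of the gene, against 51.4% of all detected genes. Inpp5f was led by Inpp5f-208, which starts in an intron and resembles the paternally expressed brain form of this gene. The start group of that transcript held 55.7% in replicate 1 and 58.3% in replicate 2, against 41.0% and 38.3% for the full-length start. Transcript annotation sets these shares, and the tables cannot show which parental copy made them.

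Other leading transcripts had even or uneven support. Gnas-208 held 78.6% in replicate 1 and 78.5% in replicate 2, Cdkn1c-201 held 83.4% and 84.5%, and Meg3-205 held 74.9% and 75.6%. Mest-211 held 93.8% in replicate 1 and 93.5% in replicate 2. H19-202 held 42.0% in replicate 1 and 41.2% in replicate 2, the rest being spread over other models of the same RNA. Each of these shares repeated to within 2 percentage points. Nnat-202 held 65.9% in replicate 1 and 61.1% in replicate 2, Peg3-201 held 76.2% and 81.9%, and Blcap-202 held 79.8% and 87.3%. Plagl1-202 held 67.5% and 68.9%, Tssc4-206 held 54.0% and 57.4%, Sgce-205 held 65.6% and 63.3%, and Commd1-203, a model of 469 nt, held 38.1% and 38.4%.

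The leading shares of Peg10, Mirg, Dlk1 and Copg2 differed most between the libraries, by over 10 percentage points. Dlk1-205 held 69.8% of Dlk1 in replicate 1 and 84.5% in replicate 2, and Dlk1-209, a model of 483 nt, was at 11.4 TPM in replicate 1 and listed at 0 in replicate 2. Mirg-207 held 45.9% of Mirg in replicate 1 and 29.4% in replicate 2, at 144 and 239 counts for the gene, and Copg2-201 held 79.2% of Copg2 in replicate 1 and 68.5% in replicate 2. Peg10 was the only detected member whose leading transcript differed between the libraries, which 5.70% of all detected genes did. Peg10-202 held 50.5% in replicate 1 and 28.4% in replicate 2, and Peg10-203 held 15.2% in replicate 1 and 37.5% in replicate 2. Both models share most of their sequence, and Peg10 had 535 counts in replicate 1 and 608 in replicate 2 in all.

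**Figure D3:**
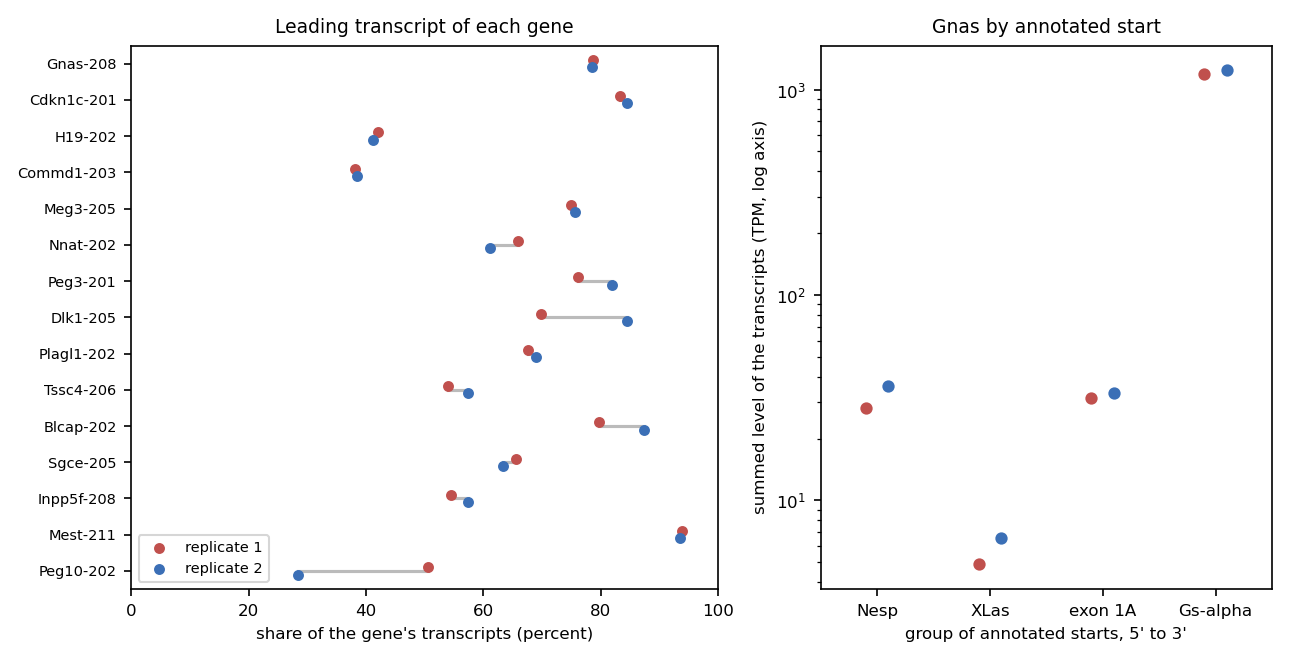
Left, share of each gene's transcripts held by its leading transcript (percent, the quantifier's value), for the 15 members whose transcripts are described, with replicate 1 in red and replicate 2 in blue; right, summed TPM on a log axis of Gnas transcripts grouped by annotated start. Of those shown, Peg10-202 and Dlk1-205 lie furthest apart between libraries, and the Gs-alpha start lies far above the Nesp, XLas and exon 1A starts of Gnas.

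Between the pools, the Dlk1-Dio3 cluster stood apart from the other members that had enough counts to compare. Genes were compared where neither library had them below 1 TPM and the mean expected count was 100 or more, and called at a TPM ratio of 1.5-fold. Of 36 eligible members 3 were lower in replicate 1, all of them in this cluster, and 0 were higher. Among all 13350 eligible genes 1.78% were lower and 0.936% were higher in replicate 1. Meg3 had a ratio of replicate 1 over replicate 2 of 0.604 (95% interval 0.586 to 0.622). Mirg had a ratio of 0.628 (0.507 to 0.775) and Dlk1 a ratio of 0.656 (0.628 to 0.684). The intervals, by the exact Clopper-Pearson method on the counts and scaled to the TPM ratio, cover counting error only. Those of Mirg and Dlk1 reach across the 1.5-fold line. From counts with TMM factors the log2 ratio was -0.75 for Dlk1 and -0.60 for Mirg, against -0.61 and -0.67 from TPM.

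All 5 eligible genes of the cluster were lower in replicate 1, on both the paternal and the maternal side. On the log2 scale Meg3 was at -0.73, Mirg at -0.67, Dlk1 at -0.61, Begain at -0.42 and Rian at -0.39. Rian and Begain fell short of the 1.5-fold line, and from TPM Dlk1 was the called gene nearest to it. From counts with TMM factors Mirg, at -0.60, was the nearest. The log2 ratio of Meg3 and of Dlk1 was larger in size than that of 99% of genes at their abundance, a limit of 0.47. Rian lay beyond the limit that 95% of genes at its abundance kept to, 0.27. Mirg and Begain did not pass that limit in their own bin, 0.79. Of the members of this cluster too scarce to call, Rtl1 was at -0.50 and Dio3 at 0.18.

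The eligible members of the other clusters differed little. These 31 members lay between -0.35 (Phlda2) and 0.15 (Copg2), with a median of -0.09, against -0.02 for all eligible genes. Members of these clusters with too few counts to call varied more. Usp29 was at -1.10, Rasgrf1 at -0.65, Ascl2 at -0.63, Snurf at -0.57, Magel2 at -0.49 and Calcr at 0.86. Over all 36 eligible members 30 were below 0, against 54.9% of all eligible genes. With counts scaled by TMM or by DESeq2 factors 28 were below 0, against 48.8% and 48.1% of all eligible genes. The 9 eligible maternally expressed members were all below 0, with a median of -0.33, and 3 of them are the chromosome 12 RNAs. The 16 paternally expressed ones had a median of -0.12, with 14 below 0. The 11 of limited imprinting had a median of -0.07, with 7 below 0. Mest, Gnas, Grb10 and Peg3 were all within -0.08 and 0 on the log2 scale.

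**Figure D4:**
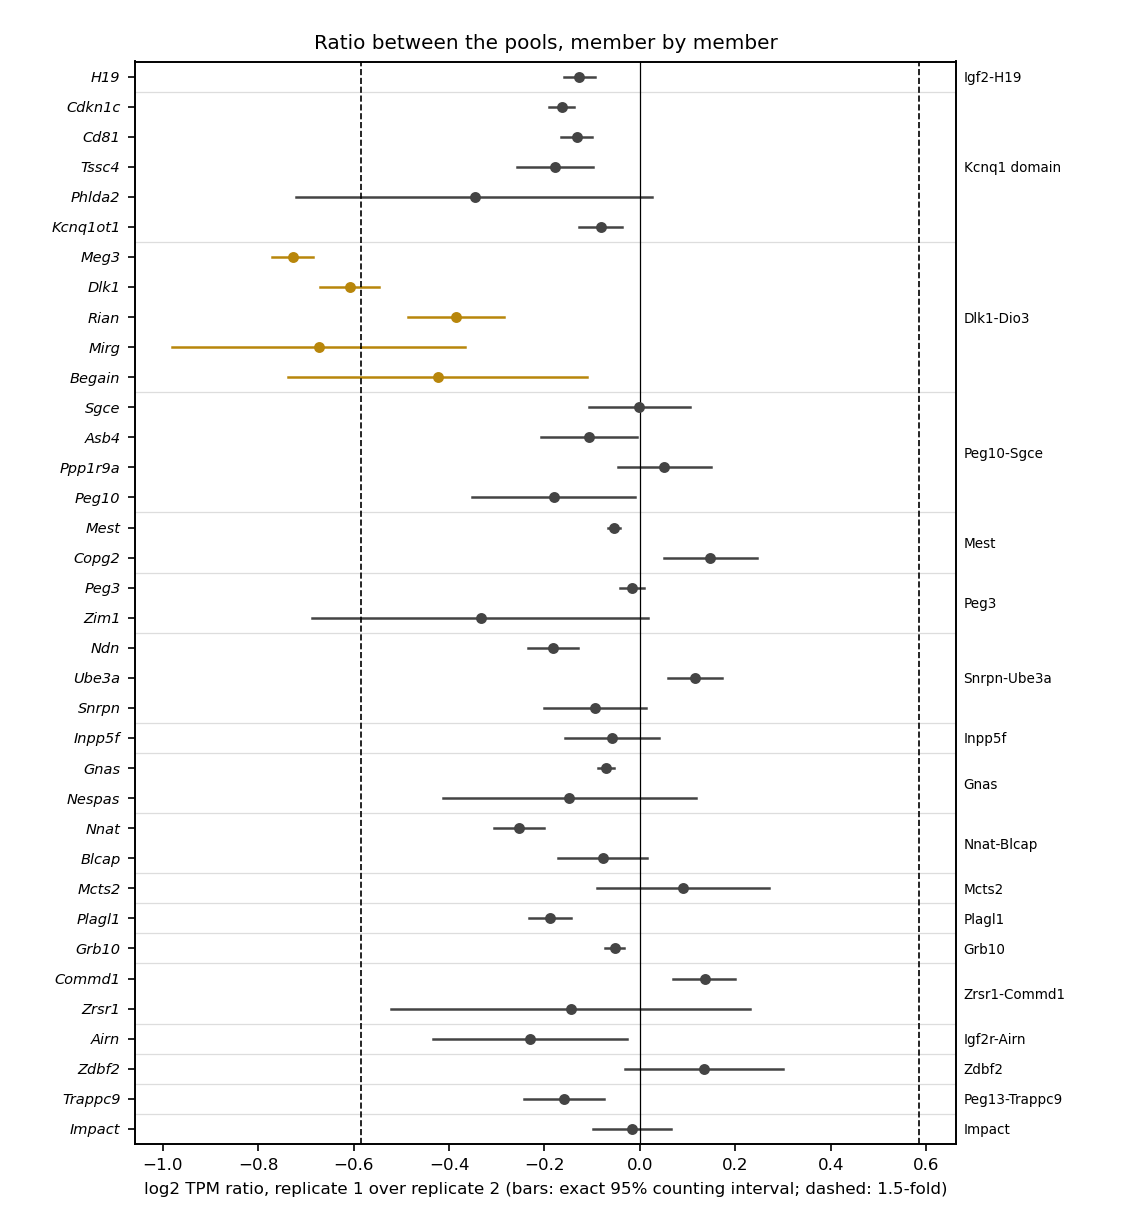
Log2 TPM ratio of replicate 1 over replicate 2 for the 36 eligible members, arranged by cluster, with exact 95% counting intervals as bars and dashed lines at 1.5-fold; genes of the Dlk1-Dio3 cluster are in ochre. Those 5 genes lie from -0.73 to -0.39, below every other member shown.

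Markers of neighbouring tissues moved between the pools as well. Lower and higher here mean past the 1.5-fold line, as were 1.78% and 0.936% of all eligible genes. All 7 adrenal cortex markers (Cyp11a1, Cyp11b1, Cyp21a1, Hsd3b1, Star, Nr5a1 and Mc2r) were lower in replicate 1, with a median of -1.60 and a summed level of 47.1 TPM in replicate 1 and 152.7 TPM in replicate 2. All 4 eligible adrenal medulla markers (Th, Dbh, Chga and Chgb) were lower, with a median of -2.56 and a sum over the 5 markers used of 17.99 TPM in replicate 1 and 96.5 TPM in replicate 2. Liver markers were lower for 6 of 7 (Afp, Alb, Trf, Apoa1, Apoa2 and Fgb), and all 7 were below 0. Their sum was 252 TPM in replicate 1 and 502 TPM in replicate 2. Neuron markers were lower for 4 of 5 (Stmn2, Tubb3, Snap25 and Nefl), with a sum of 37.99 TPM in replicate 1 and 75.0 TPM in replicate 2. Skeletal muscle markers were higher in replicate 1 for 6 of 7 (Acta1, Tnnt3, Ckm, Myog, Mylpf and Tnnc2), and 0 of 7 were below 0. Their sum was 435 TPM in replicate 1 and 233 TPM in replicate 2. Kidney markers were called in 0 of 10, with a median of -0.07, and no marker of any of these lists was at 0 in either library. The part of these tissues in the difference of the Dlk1-Dio3 genes was not tested, and in bulk RNA fewer cells of a type and less RNA per cell cannot be told apart.

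**Figure D5:**
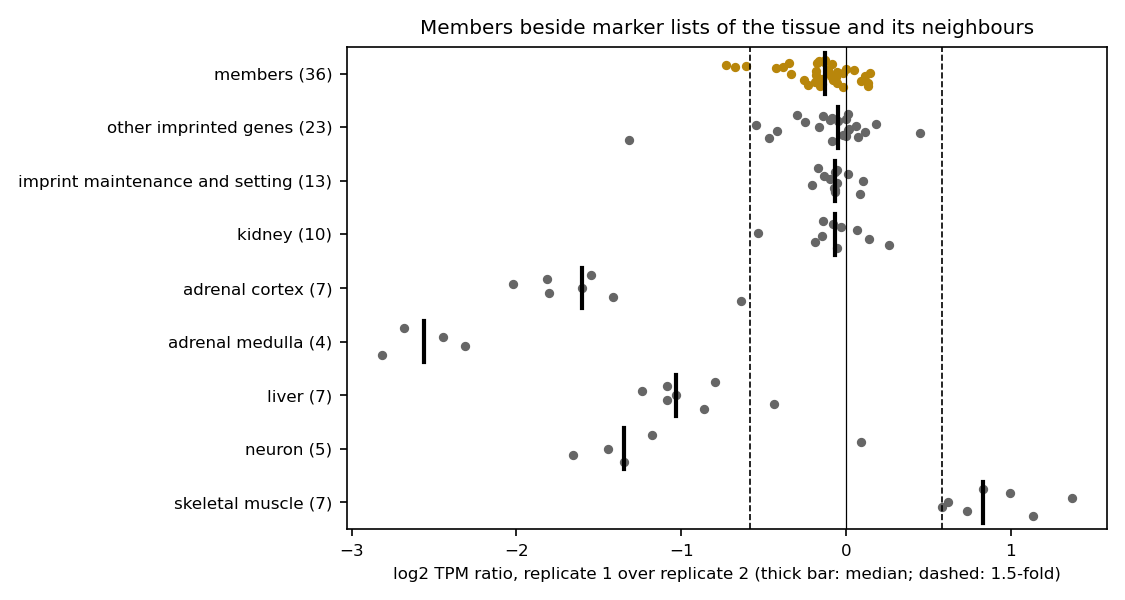
Log2 TPM ratio of replicate 1 over replicate 2 for eligible members (ochre) and for eligible genes of other lists (grey), with the number of genes in brackets, the median as a thick bar and dashed lines at 1.5-fold. Adrenal, liver and neuron markers lie mostly to the left, skeletal muscle markers to the right, and the members, kidney markers and imprint regulators near 0, with medians of -0.13, -0.07 and -0.07.

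Most factors that keep imprints were expressed, and those eligible had log2 ratios between the pools from -0.21 to 0.10. Of 16 genes that set or maintain imprints 13 were detected, against 62.3% of all protein-coding genes. Highest was the corepressor Trim28 at 234 TPM in replicate 1 and 245 TPM in replicate 2. The methylation reader Uhrf1 followed at 133 and 142 TPM, and the insulator protein Ctcf at 108.6 and 107.7 TPM. Zfp57 stood at 50.1 TPM in replicate 1 and 56.4 TPM in replicate 2, and Zfp445 at 33.6 and 35.0 TPM. The 3 that were not detected, Ctcfl, Dnmt3l and Dppa3, act in germ cells or the early embryo. None of the 13 passed 1.5-fold in either direction, and over all eligible genes only 1.78% were lower and 0.936% higher in replicate 1.

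Of 30 other imprinted genes 24 were detected, against 62.3% of all protein-coding genes. Igf2 led at 564 TPM in replicate 1 and 559 TPM in replicate 2. Next were the histone chaperone Nap1l4 at 202 TPM in both and the matrix proteoglycan Dcn at 155 and 227 TPM. Among the 23 eligible ones, 1 passed 1.5-fold, Plg, the plasminogen gene of liver, at 1.18 TPM in replicate 1 and 2.94 TPM in replicate 2. Over all eligible genes 1.78% were lower and 0.936% higher in replicate 1. The 23 had a median log2 ratio of -0.05. Dcn, at -0.55, did not pass 1.5-fold but was beyond the limit of 0.47 that 99% of genes at its abundance kept to. Nap1l5, at 0.84 TPM in replicate 1 and 3.02 TPM in replicate 2, and Slc22a3, Ins2 and L3mbtl1 differed by more than 1.5-fold but were below 1 TPM in at least 1 library.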

How the data were processed

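Total RNA of 2 pools of embryonic kidney was measured, with spike-in RNAs added and a size range above 200 nt, per the labels. Reads were placed on mouse build mm10 with GENCODE M4, per the text files beside the tables; the aligner, the quantifier and any use of strand are not stated in these sources. The deposited expected count of a feature is an estimate and need not be whole (whole within 0.005 in both libraries for 30 matched members and not for 14). The deposited TPM values are length-adjusted abundances scaled to a fixed sum per library; spike-ins are part of that sum and held 5.78% of TPM in replicate 1 and 7.34% in replicate 2. The percent of a gene held by each transcript is the authors' column, per the file headers. The tables carry upper and lower bounds for TPM whose level is not stated, and these were not used in any result.

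Gene names, biotypes and positions were taken from GENCODE M21, which uses the same build (98.0% of genes matched), and 212 of 259 member transcripts had the same length there. Exon bases and their overlaps are those of all M21 models of a gene and can differ from the M4 models that were counted. Sequences are from RefSeq on GRCm38.p6. Protein sequences were not used here, so retrocopies were compared with their parents as transcripts.

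Members, gene lists, pairs and rules were chosen with earlier results of these data known. Every member is named, and transcripts are named for the 12 highest detected members with a leading transcript under 90%, any with a changed leader, and Gnas, Inpp5f, Nnat and Mest; of other lists the 3 highest genes and those past 1.5-fold. For the tissue marker lists only the genes past 1.5-fold are named, without values, and 1 adrenal medulla marker is not reported here. Zdbf2 transcripts, Zfp57, Zfp445, Mirg-207, Copg2-201, Dlk1-209 and Peg10-203 were chosen after their values were seen. Parental classes are from general knowledge. Ratios used no pseudocount and pairs a pseudocount of 1. Spread between libraries was taken in bins of mean TPM from 1, 3, 10, 30 and 100, the lowest bin standing for scarcer genes. The shares of neighbouring gene pairs (adjacent annotated starts) and of transcripts over all detected genes were added after the data were seen. The replicate labels state biological replicates of pooled animals, and an SD over 2 pools is imprecise. Counts without molecular identifiers are not independent molecules. Alternatives were other thresholds, a pseudocount of 0.1, TPM rescaled over mouse genes, edgeR 4.0.16 TMM and DESeq2 1.42.0 size factors on rounded counts (scaling only), and each library alone. Tools were Python 3.11.15, pandas, Biopython and matplotlib.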

Additional observations from a re-analysis of the deposited data

How the results depend on the processing

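Detection held at 40 members at 0.5 TPM and 32 at 5 TPM, and at 37 to 38 with either library alone. Class medians over detected members alone, a smaller set by construction, were 36.4 TPM (maternal), 28.4 TPM (paternal) and 39.1 TPM (limited), which put the limited class highest; rescaling over mouse genes gave 26.4 TPM for the limited class. With either library alone the medians were 26.2 to 31.8, 19.25 to 23.7 and 23.6 to 25.6 TPM. Of 20 pairs 20 passed with either library alone (20 to 20), with a pseudocount of 0.1 and with rescaled TPM, and 19 at the 99th percentile of spread, where Snrpn over Ube3a was lost. Members lower in replicate 1 numbered 3 under all scalings, 6 without filters on count and TPM and 0 at 2-fold; 1 member, Calcr, was higher without filters. The log2 ratio of Dlk1 was -0.75 with TMM factors on counts, against -0.61 from TPM. Members with a leading transcript under 90% numbered 24 to 25 with either library alone. No setting that leaves out a library can give a pool difference. With 2 pools of 1 group and no allele counts, the tables allow no test of imprinting, and members under about 100 counts have wide counting intervals.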
